A study of Mus musculus with 14 samples.

Results

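The comparison described here set the injured, ipsilateral (IL) hemisphere of Nhe1 cKO mice against their uninjured, contralateral (CL) hemisphere, 3 days after traumatic brain injury (TBI). Its members were the libraries that the sample labels place in the cKO genotype, 6 of the 14 in the series, 3 from IL and 3 from CL. Each library came from the CD11b+ cells of 1 hemisphere, taken with magnetic beads (MACS), and was sequenced in bulk from Smart Seq v4 cDNA. The cKO animals were Cx3cr1-CreER+/-;Nhe1flox/flox mice on C57BL/6 and the Ctrl animals were Cx3cr1-CreER+/- mice of the same strain. The 8 Ctrl libraries were used for the comparison of genotypes and in fits of all 14 libraries. Both genotypes carried the CreER allele, had received tamoxifen and were 8 to 12 weeks old. Mice 791 and 3592 gave both hemispheres, whereas mouse 784 gave only an IL library and mouse 788 only a CL library. The Cx3cr1 promoter drives CreER in microglia but also in other Cx3cr1+ myeloid cells, and CD11b is carried by monocytes, macrophages and neutrophils as well as by microglia. No uninjured animal entered this comparison, so that CL stands for the other side of an injured brain.

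Microglia are the resident macrophages of the brain, which survey the tissue with purinergic and chemokine receptors and depend on TGF-beta signalling for their identity. After an injury they lose part of this homeostatic programme and take up debris, while monocytes and neutrophils can enter from the blood.

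All values below are counts per 1000000 reads assigned to genes (CPM), given in the order of mice 788, 791 and 3592 for CL and of mice 784, 791 and 3592 for IL. Fold changes are IL against CL on the log2(CPM + 1) scale after trimmed-mean scaling between libraries, given ± the standard error of limma. A gene was called where the Benjamini-Hochberg adjusted p was at most 0.05 and the fold change at least 1.2. The 6 libraries held 25.8 to 38.3 M reads (M standing for 1000000), estimated from the spacing of their low CPM values. The microglial markers of CL were high, with P2ry12 at 4979.6, 4046 and 5416 CPM. T and NK cell markers summed to 10.2 to 23.1 CPM and neuron markers to 4.1 to 6.19 CPM over the 6 libraries, with 7 of 15 and 8 of 11 markers under 1 CPM in each. B cell markers summed to 661 to 768 CPM in CL and 325 to 494 CPM in IL, nearly all of it Ighm, while 4 of the 8 were under 1 CPM in all 6 libraries. The first principal component, 58.0% of the variance, separated IL from CL, and the second, 20.7%, set both libraries of mouse 3592 apart, CL 3592 more than IL 3592. Rank correlations between libraries were 0.973 to 0.987 within a hemisphere and 0.956 to 0.973 between hemispheres.

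Of 16757 genes tested, 3746 (22.4%) were called, 2150 higher in IL (12.8%) and 1596 lower (9.52%). A fold change of at least 2 was reached by 568 of the risers and 254 of the fallers, and one of at least 4 by 104 and 8. In 3691 of the called genes no IL library overlapped a CL library, against 42.4% of all genes tested, 18.1% with IL above CL and 24.3% with IL below. Calls and overlap were read from the same libraries, so this is no separate check of the calls. The balance of directions depended on scaling: on the deposited CPM without further scaling, 1647 were called higher and 2146 lower. With the mouse as a fixed block, in which only mice 791 and 3592 inform the difference, 2315 genes were called, 1489 higher and 826 lower. The count was 1881 without IL 784, 1913 without IL 791, 2426 without IL 3592 and 2463 without CL 788, and it was 3537 without CL 3592, the library that stood apart most. In a single fit of all 14 libraries, in which the spread of the Ctrl libraries also enters, 1391 genes were called, 754 higher and 637 lower. In none of these fits did a called gene change direction. Where a described gene lost its call in that fit of all 14 libraries, its adjusted p in it is given, and counts of list members are to be read against the 12.8% and 9.52% of all genes.

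**Figure D1:**
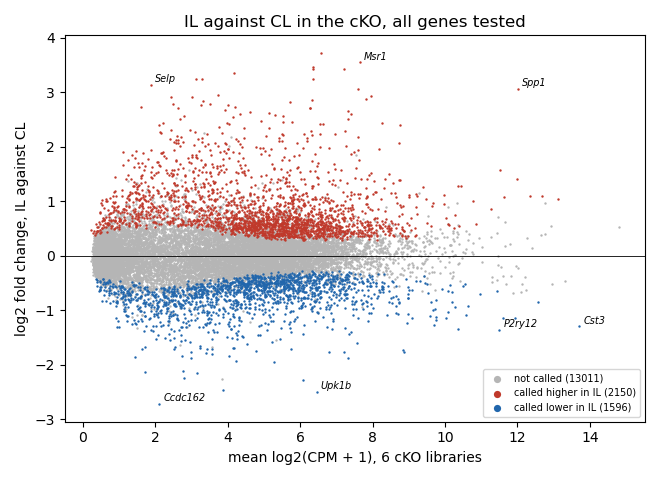
Log2 fold change (IL against CL) of every gene tested against its mean log2(CPM + 1) over the 6 cKO libraries. Red points are the 2150 genes called higher in IL, blue points the 1596 called lower and grey points the 13011 not called, and the rises reach further from 0 than the falls.

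The 10 largest rises and 10 largest falls were picked among called genes without overlap between the hemispheres. Their lack of overlap therefore follows from the choice and is no separate support. Of the 10 largest rises 9 are described, which are genes for secreted, surface and metabolic proteins. Msr1, a scavenger receptor for modified lipoproteins (chr8:39581685-39642673, GRCm38), read 21.9, 60.1 and 159 CPM in CL and 535, 675 and 819 CPM in IL. Every IL value exceeded the highest CL value, that of CL 3592 (log2 fold change 3.54 ± 0.56, adjusted p = 0.00518). Adam8, a membrane metalloprotease of myeloid cells, read 13.2, 20.6 and 52.4 CPM in CL and 191, 331 and 288 CPM in IL, without overlap (log2 fold change 3.46 ± 0.42, adjusted p = 0.00246). Fn1, which encodes the matrix protein fibronectin, read 18.3, 49.3 and 103 CPM in CL and 382, 460.1 and 586 CPM in IL. It was highest in mouse 3592 on both sides, without overlap (log2 fold change 3.42 ± 0.49, adjusted p = 0.00379).

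The others were Hal (histidine ammonia-lyase), Emp1 (an epithelial membrane protein), F10 (coagulation factor X), Il1rn (the secreted antagonist of the interleukin-1 receptor), Cd5l (a macrophage protein that binds lipids) and Selp (the adhesion receptor P-selectin). Il1rn read 14.3, 35.4 and 35.8 CPM in CL and 272, 302 and 174 CPM in IL, so that the lowest IL library lay far above every CL library (log2 fold change 3.24 ± 0.35, adjusted p = 0.00183). Emp1 read 1.96, 3.97 and 12.5 CPM in CL and 40.6, 49 and 85.6 CPM in IL, highest on each side in mouse 3592 (log2 fold change 3.35 ± 0.49, adjusted p = 0.0039). Selp was close to 0 in CL, at 0.221, 0.146 and 0.452 CPM, and read 5.29, 13.1 and 13.1 CPM in IL. That rise was seen in all 3 IL libraries, the lowest being IL 784 (log2 fold change 3.14 ± 0.31, adjusted p = 0.00183). Hal, F10 and Cd5l had log2 fold changes of 3.43, 3.24 and 3.23. The 9 genes named here, and the 10 largest falls, were also called with any 1 library left out and with the mouse as a fixed block. In the fit of all 14 libraries Ngp and Camp, both among the falls, were not called (adjusted p = 0.251 and 0.245).

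The promoters of these genes were read from RefSeq (GRCm38.p6), where 7 of the 10 have an entry. The AP-1 motif TGANTCA, searched on both strands in the 250 bases before the start, was found in 4 of those 7 (Hal, Emp1, Il1rn and Selp), in 0 of the 7 promoters available for the 10 largest falls, and in 6.87% of all 27025 promoters. It was 1 of 5 motifs searched and was singled out after the counts were seen. Of the same 7 promoters of rises, 0 held the kappa-B part GGGNNTTTC (3.79% of all promoters), 0 GAAANNGAA (7.16%), 1 TTTGAA (16.3%) and 3 CCAAT (34.5%). The sequences of Emp1 (chr6:135362681-135362930, plus strand) and Il1rn (chr2:24336610-24336859, plus strand) are given because these genes pair a large rise with the motif. They run 5′ to 3′ up to the start, with the motif in capitals, and a match is a description of the letters, not a measured binding site.
Emp1: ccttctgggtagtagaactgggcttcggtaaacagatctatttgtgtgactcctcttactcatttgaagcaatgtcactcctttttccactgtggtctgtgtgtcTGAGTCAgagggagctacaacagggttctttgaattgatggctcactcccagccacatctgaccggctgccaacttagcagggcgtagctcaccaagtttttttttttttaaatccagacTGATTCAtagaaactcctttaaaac
Il1rn: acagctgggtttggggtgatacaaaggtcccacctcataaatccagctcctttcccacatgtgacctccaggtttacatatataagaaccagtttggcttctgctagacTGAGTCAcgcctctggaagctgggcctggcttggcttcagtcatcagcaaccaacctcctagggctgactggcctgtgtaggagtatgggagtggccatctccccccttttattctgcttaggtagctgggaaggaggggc

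**Figure D2:**
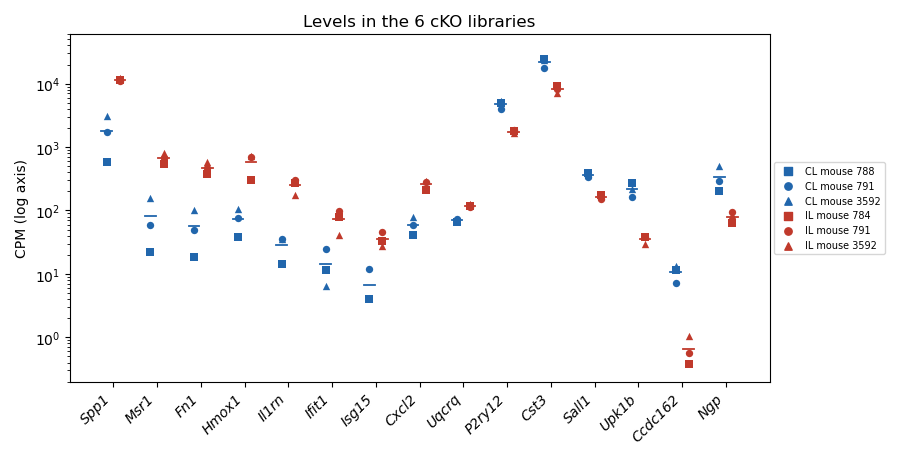
CPM (log axis) of genes described in the text in each of the 6 cKO libraries, CL in blue and IL in red, with 1 symbol for each mouse position and a bar at the mean of the 3 libraries. The 3 IL values of Spp1 lie together above spread CL values, P2ry12 and Cst3 lie lower in IL, and mouse 3592 (triangles) is lowest for Ifit1.

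The largest falls, likewise picked without overlap, were of other kinds. Ccdc162, a coiled-coil gene of unknown role, read 11.4, 7.13 and 13.1 CPM in CL and 0.38, 0.575 and 1.03 CPM in IL. All IL values were near or under 1 CPM (log2 fold change -2.73 ± 0.25, adjusted p = 0.00183). Upk1b, a tetraspanin first known from the bladder epithelium (chr16:38773184-38800328), read 274, 164 and 216 CPM in CL and 37.5, 38.3 and 29.5 CPM in IL. The 3 IL libraries lay close together and far under CL (log2 fold change -2.50 ± 0.22, adjusted p = 0.00183). Gpr165, an orphan receptor, read 28.4, 22.1 and 65.9 CPM in CL and 4.36, 4.13 and 7.2 CPM in IL, highest in mouse 3592 on each side (log2 fold change -2.48 ± 0.36, adjusted p = 0.0039). Klhdc8b, a kelch-domain gene, read 162, 113 and 197 CPM in CL and 28.5, 28.9 and 29.9 CPM in IL, without overlap (log2 fold change -2.27 ± 0.18, adjusted p = 0.00183). It shares 1055 bases with Ccdc71 on the opposite strand, and the strand setting of the counting is not given in the sources used here.

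Among the remaining 6, Ngp and Camp encode neutrophil granule proteins and are taken up with their cell type below, and Mgl2 encodes a galactose-binding lectin of macrophages and dendritic cells. Mgl2 read 34.7, 25.3 and 56.6 CPM in CL and 6.98, 5.82 and 14.4 CPM in IL, with no overlap (log2 fold change -1.93 ± 0.33, adjusted p = 0.00657), but it has a near copy, Clec10a, so that reads could be split between the pair. Gprasp2 (-2.15) lies within Bhlhb9 on the same strand, Gm3411 (-2.25) has a family of near copies, and Gm42944 (-2.12) is annotated only as a transcript still to be tested, which makes these 3 values uncertain.

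On the CPM scale, which is not divided by transcript length, the largest gain was that of Spp1, osteopontin, a secreted phosphoprotein of activated phagocytes (chr5:104435118-104441050). Its level was 572, 1749 and 3133 CPM in CL and 11228, 11056 and 12197 CPM in IL. The IL libraries were nearly equal while the CL libraries were spread out, lowest in CL 788 (log2 fold change 3.06 ± 0.52, adjusted p = 0.00636). The next gains were those of Ctsb (the lysosomal protease cathepsin B), Ftl1-ps1, Fth1 and Ftl1 (ferritin chains that store iron) and Lyz2 (lysozyme). Fth1 read 2205, 2780.2 and 2814 CPM in CL and 5642, 7759.6 and 6217 CPM in IL, every IL library above every CL library (log2 fold change 1.41 ± 0.24, adjusted p = 0.00614). Ftl1 and Ftl1-ps1 are near copies, and their summed level was 7568, 7999 and 9399 CPM in CL and 14292, 18523 and 17494 CPM in IL. Each of the pair was called (adjusted p = 0.0154 and 0.0215), Ftl1-ps1 not with the mouse as a block (adjusted p = 0.0632). Neither was called without CL 788, CL 791 or IL 791 (adjusted p = 0.0513 to 0.0703 for Ftl1 and 0.0624 to 0.0919 for Ftl1-ps1, the latter also without IL 784), nor in the fit of all 14 libraries (adjusted p = 0.121 and 0.148). Ctsb was called at a log2 fold change of 1.03, adjusted p = 0.0412, but not with the block (adjusted p = 0.125) nor in any fit without 1 library (adjusted p = 0.0566 to 0.156). Lyz2 (log2 fold change 1.57, adjusted p = 0.0215) was not called without CL 788, CL 791, IL 784, IL 791 or IL 3592 (adjusted p = 0.0602 to 0.0682) nor in the fit of all 14 libraries (adjusted p = 0.0541).

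The largest losses in CPM were those of Cst3, Fos, Selplg, P2ry12, Jun and Serinc3. Cst3, cystatin C, an inhibitor of cysteine proteases that microglia make in quantity, read 24305, 17444 and 23314 CPM in CL and 9251, 8376 and 7172 CPM in IL. The groups did not overlap (log2 fold change -1.30 ± 0.37, adjusted p = 0.0392), yet the call was lost with the block (adjusted p = 0.116) and in every fit without 1 library (adjusted p = 0.0576 to 0.132), as in the fit of all 14 libraries (adjusted p = 0.119). Serinc3, which encodes a multipass membrane protein, read 3632, 3348 and 3699.7 CPM in CL and 2116, 2147 and 2155 CPM in IL, again without overlap (log2 fold change -0.65 ± 0.17, adjusted p = 0.0308). Its call was likewise lost with the block (adjusted p = 0.14) and without any 1 library (adjusted p = 0.0567 to 0.121), and in the fit of all 14 libraries (adjusted p = 0.0523).

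Homeostatic microglial genes were lower in IL. Of 22 measured, 14 were called lower and 0 higher, with a median log2 fold change of -0.86 against 0.02 over all genes tested, and their summed level was 69328 to 82886 CPM in CL and 37222 to 42877 CPM in IL. P2ry12, the ADP receptor that guides microglial processes (chr3:59216272-59262871), read 4979.6, 4046 and 5416 CPM in CL and 1785, 1849 and 1639 CPM in IL. Its IL libraries were tightly grouped, with no overlap (log2 fold change -1.36 ± 0.20, adjusted p = 0.00445). P2ry13, a related nucleotide receptor, read 2320.2, 1801 and 2423 CPM in CL and 800.3, 850.1 and 762 CPM in IL (log2 fold change -1.34 ± 0.17, adjusted p = 0.00277). Sall1, a transcription factor of microglial identity, read 393, 343 and 364 CPM in CL and 177, 154 and 166 CPM in IL, both groups narrow (log2 fold change -1.05 ± 0.11, adjusted p = 0.00183). Cx3cr1, the fractalkine receptor and the locus of the CreER allele, read 2611, 1787 and 2637 CPM in CL and 988, 877 and 1245 CPM in IL. Both groups spread, CL 791 and IL 791 being the lowest of each, but they did not overlap (log2 fold change -1.08 ± 0.20, adjusted p = 0.00852). In these bulk samples, fewer cells of a type and less RNA per cell cannot be told apart.

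Members of the homeostatic list did not move evenly. Tgfbr1 (-1.11), Adgrg1 (-1.14), Selplg (-1.14), Siglech (-0.98), Gpr34 (-0.85) and Mertk (-0.78) were called. Tmem119, a membrane protein used to tell microglia from other macrophages, read 2076, 2406 and 3541 CPM in CL and 1469, 1344 and 1749 CPM in IL, with CL 3592 the highest. It was called at a log2 fold change of -0.70, adjusted p = 0.0449 but in no fit without 1 library (adjusted p = 0.051 to 0.14) nor in that of all 14 libraries (adjusted p = 0.11). Selplg was not called without IL 784 (adjusted p = 0.0511). Csf1r and Fcrls were not called (log2 fold changes -0.51 and 0.12, adjusted p = 0.219 and 0.507), except Csf1r without the variance trend (adjusted p = 0.0344).

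Of 17 genes of TGF-beta signalling and the myeloid lineage, 6 were called lower and 1 higher (median -0.30), against 9.52% and 12.8% of all genes tested. The counts were 5 and 1 with the mouse as a fixed block and 3 and 0 in the fit of all 14 libraries. Tgfbr1, the type I receptor, read 1151, 1150.1 and 1197 CPM in CL and 472, 489 and 569 CPM in IL (log2 fold change -1.11 ± 0.11, adjusted p = 0.00183). Smad7, the inhibitory Smad that TGF-beta signalling induces, read 171, 176 and 191 CPM in CL and 119, 115 and 95.4 CPM in IL (log2 fold change -0.62 ± 0.13, adjusted p = 0.0134, 0.128 in the fit of all 14 libraries). The type II receptor Tgfbr2 was not called (log2 fold change -0.31, adjusted p = 0.079, 0.0214 without scaling). The factors Mef2c and Maf fell with Sall1 (log2 fold changes -0.77 and -0.78, adjusted p = 0.00628 and 0.0148), Maf not without IL 791 (adjusted p = 0.0603) nor in the fit of all 14 libraries (adjusted p = 0.0522). Itgav, which activates latent TGF-beta, was called lower (log2 fold change -0.47, adjusted p = 0.0286). It was not called with the block (adjusted p = 0.116) nor without CL 788, CL 791, IL 784 or IL 791 (adjusted p = 0.0774 to 0.0957) nor in the fit of all 14 libraries (adjusted p = 0.315). Cebpb, a factor of inflammatory gene induction, was the 1 member that rose, from 739, 595 and 931 CPM in CL to 1384, 1205 and 1447 CPM in IL (log2 fold change 0.94 ± 0.17, adjusted p = 0.00847, 0.14 in the fit of all 14 libraries).

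Genes of disease-associated microglia, a state of phagocytic and lipid-handling microglia, were higher in IL for 10 of 24 measured and lower for 0 (median 0.93), against 12.8% and 9.52% of all genes tested. The number higher was 11 with the fixed block and 6 without CL 788, without IL 784 and without IL 791. Lgals3, galectin-3, read 51.9, 70.2 and 217 CPM in CL and 631, 666 and 713 CPM in IL. CL 3592 was the highest CL library and still far under IL (log2 fold change 2.92 ± 0.43, adjusted p = 0.00408). Gpnmb, a transmembrane glycoprotein of phagocytes, read 46.4, 49.1 and 265 CPM in CL and 632, 409.9 and 806 CPM in IL, with the same library standing out in CL (log2 fold change 2.88 ± 0.59, adjusted p = 0.0118, 0.052 in the fit of all 14 libraries). Cd63, a tetraspanin of late endosomes, read 207, 365 and 259 CPM in CL and 659.8, 649.9 and 689 CPM in IL (log2 fold change 1.39 ± 0.18, adjusted p = 0.00274). Several defining members were not called: Apoe read 3508, 4597 and 8407 CPM in CL and 9730.1, 7279.8 and 12067 CPM in IL, with CL 3592 within the IL range (log2 fold change 0.97, adjusted p = 0.0923, 0.022 and called without CL 3592). Clec7a (log2 fold change 1.07, adjusted p = 0.109, 0.0342 with the block and 0.0158 without CL 791), Itgax (log2 fold change 0.50, adjusted p = 0.212), Cst7 (log2 fold change 1.01, adjusted p = 0.155, 0.0141 with the block) and Trem2 (log2 fold change -0.37, adjusted p = 0.185) were not called either in the fit of all 6 cKO libraries without a block.

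Genes of lipid uptake, storage and efflux included 10 called higher and 1 lower of 14 (median 1.12), or 9 and 0 with the fixed block. Besides Msr1, the scavenger receptors Cd36 and Olr1 were called higher (log2 fold changes 1.75 and 1.71, adjusted p = 0.00802 and 0.00472). Plin2, which coats lipid droplets, read 117, 189 and 323 CPM in CL and 752, 1024 and 1149 CPM in IL, without overlap (log2 fold change 2.40 ± 0.31, adjusted p = 0.0029). Ch25h, which makes the oxysterol 25-hydroxycholesterol, read 57.4, 114 and 40.2 CPM in CL and 412, 396 and 349.6 CPM in IL, and here mouse 3592 was the lowest on both sides (log2 fold change 2.65 ± 0.32, adjusted p = 0.00243). The sterol esterifier Soat1 and the cholesterol exporter Abca1 were called at smaller rises (log2 fold changes 1.16 and 1.08, adjusted p = 0.00193 and 0.00255). The single fall, of the sterol transporter Npc1 (log2 fold change -0.32, adjusted p = 0.0456), was not called with the block (adjusted p = 0.18) nor without CL 788, CL 3592, IL 784, IL 791 or IL 3592 (adjusted p = 0.102 to 0.132) nor in the fit of all 14 libraries (adjusted p = 0.334). By contrast, 0 of 19 genes of cholesterol synthesis were called by limma (median 0.23), 3 having an unadjusted p under 0.05.

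Of 22 lysosomal genes, 10 were called higher and 0 lower (median 0.56), against 12.8% and 9.52% of all genes tested. This count was sensitive to the libraries used, with 3 called without IL 784 or IL 791, 4 without CL 788, 5 without IL 3592 and 6 without CL 791. It was 5 with the mouse as a block or in a single fit of all 14 libraries, and 6 without the filter on low values. Gla, alpha-galactosidase A, read 11.9, 24.2 and 29.5 CPM in CL and 81.7, 98.4 and 104 CPM in IL, the largest rise of the list (log2 fold change 2.23 ± 0.27, adjusted p = 0.00243). Atp6v1a, a subunit of the proton pump that acidifies lysosomes, read 93.4, 120.2 and 112 CPM in CL and 173, 176 and 240.0 CPM in IL (log2 fold change 0.92 ± 0.12, adjusted p = 0.00299). The membrane proteins Lamp1 and Lamp2 were not called (log2 fold changes 0.24 and 0.20, adjusted p = 0.273 and 0.323).

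Genes of the extracellular matrix and wound repair were higher in IL. Of 16 measured, 12 were called higher and 0 lower, with a median of 2.17, and their summed level was 2064 to 5243 CPM in CL and 14978 to 17096 CPM in IL, of which Spp1 was the largest part. Tgfbi, an adhesion protein induced by TGF-beta, read 65.6, 84.4 and 141 CPM in CL and 358, 401 and 435 CPM in IL (log2 fold change 2.18 ± 0.23, adjusted p = 0.00183). Vim, the intermediate filament vimentin, read 50.5, 51.3 and 133 CPM in CL and 345, 452 and 425 CPM in IL, with CL 3592 the highest of its side (log2 fold change 2.59 ± 0.33, adjusted p = 0.00262). Thbs1, the matricellular protein thrombospondin-1, read 61.8, 37.5 and 136 CPM in CL and 173, 462 and 629 CPM in IL. Here IL 784 lay only a little above CL 3592 (log2 fold change 2.50 ± 0.53, adjusted p = 0.0138), and without IL 791 the gene was not called (adjusted p = 0.0595). Mmp14, a membrane-bound collagenase, rose from 57.7, 60.8 and 60.6 CPM in CL to 115, 126 and 108 CPM in IL (log2 fold change 1.03 ± 0.11, adjusted p = 0.00183), and Mmp9, a gelatinase that neutrophils also carry, was not called (log2 fold change -0.24, adjusted p = 0.629).

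Markers of infiltrating monocytes moved the same way, 10 of 17 being called higher and 0 lower (median 1.33), or 6 without IL 791 and 13 with the fixed block. Their summed level was 302 to 841 CPM in CL, highest in CL 3592, and 1367 to 2467 CPM in IL, with Fn1 and Thbs1 among the markers summed. Cd44, the hyaluronan receptor, read 13.8, 19.4 and 28.6 CPM in CL and 71.4, 108 and 84.2 CPM in IL (log2 fold change 2.16 ± 0.25, adjusted p = 0.00206). Emilin2, a matrix glycoprotein, rose from 15.8, 29.7 and 57.6 CPM to 147, 206 and 231 CPM (log2 fold change 2.71 ± 0.38, adjusted p = 0.00346), and Plac8 from 6.23, 7.31 and 7.36 CPM to 19, 22.9 and 13.1 CPM (log2 fold change 1.33 ± 0.23, adjusted p = 0.00675). Plac8 was not called in the fit of all 14 libraries (adjusted p = 0.234, 0.083 with a random effect of mouse). The receptor that defines inflammatory monocytes, Ccr2, read 27.4, 21.8 and 72.8 CPM in CL and 43.2, 44.2 and 93.8 CPM in IL, with the hemispheres overlapping and mouse 3592 highest in each (log2 fold change 0.75 ± 0.42, adjusted p = 0.242). It was called with the block (adjusted p = 0.0363) and without CL 3592 (adjusted p = 0.0129). Ly6c2, their surface antigen and a near copy of Ly6c1, read 7.05, 8.02 and 15.6 CPM in CL and 21.4, 19.7 and 13.6 CPM in IL and was not called (log2 fold change 0.91, adjusted p = 0.0579), except without CL 3592 or IL 3592 (adjusted p = 0.00692 and 0.0411). The part of these markers in the matrix and lipid results was not tested.

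Genes induced by interferon were higher in IL. Of 21 measured, 17 were called higher and 0 lower, with a median of 2.0 and a summed level of 391 to 1071 CPM in CL and 1377 to 2772 CPM in IL, with 11 called higher without IL 791 and 19 with the fixed block. Rsad2, viperin, an antiviral enzyme, read 6.67, 21.1 and 5.11 CPM in CL and 64.3, 96.5 and 31.4 CPM in IL. Mouse 791 was the highest and mouse 3592 the lowest on both sides, and no libraries overlapped (log2 fold change 2.63 ± 0.54, adjusted p = 0.0122), although without IL 791 the adjusted p was 0.0502. Ifit1, which binds viral RNA, showed the same order of mice, with 11.4, 24.5 and 6.39 CPM in CL and 79.2, 99.9 and 40.8 CPM in IL (log2 fold change 2.47 ± 0.48, adjusted p = 0.00994). Isg15, a ubiquitin-like modifier, read 3.96, 12 and 4.14 CPM in CL and 32.8, 45 and 27.5 CPM in IL (log2 fold change 2.43 ± 0.37, adjusted p = 0.00472). Irf7, a factor that carries the response, rose from 32, 59.9 and 23.3 CPM to 162, 206 and 93.7 CPM (log2 fold change 2.10 ± 0.39, adjusted p = 0.00872). The sensors and effectors Zbp1, Oasl2, Mx1 and Bst2 were called with log2 fold changes of 2.41, 1.98, 2.0 and 1.46, Oasl2 not in the fit of all 14 libraries (adjusted p = 0.0507). Not called were Cxcl10 (log2 fold change 1.84, adjusted p = 0.0818, 0.00161 with the block), Ifi44 (log2 fold change 1.15, adjusted p = 0.0842, 0.0184 without IL 3592), Mx2 (log2 fold change 0.43, adjusted p = 0.229) and Ifih1 (log2 fold change 0.35, adjusted p = 0.58, 0.0253 with the block). Oas1a and Ifit3, also called (2.06 and 2.29), have near copies that could share their reads, and Ifit3 was not called without IL 784 or IL 791 (adjusted p = 0.0571 to 0.0648).

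RefSeq promoters were at hand for 13 of the 21 interferon-stimulated genes. The core of the interferon-stimulated response element, searched as GAAANNGAA on both strands, was present in 9 of these 13 and in 7 of the 10 that were called, against 7.16% of all 27025 promoters. Of the other motifs searched, the 13 promoters held TGANTCA in 3, GGGNNTTTC in 0, TTTGAA in 1 and CCAAT in 5. The promoters of Rsad2 (chr12:26456453-26456702, minus strand), Ifit1 (chr19:34640639-34640888, plus strand) and Isg15 (chr4:156200819-156201068, minus strand) are shown because these 3 genes had the largest log2 fold changes of the list. Capitals mark the matches, 1 in Rsad2 and 3 in each of the others, which overlap one another in Isg15 and in part in Ifit1.
Rsad2: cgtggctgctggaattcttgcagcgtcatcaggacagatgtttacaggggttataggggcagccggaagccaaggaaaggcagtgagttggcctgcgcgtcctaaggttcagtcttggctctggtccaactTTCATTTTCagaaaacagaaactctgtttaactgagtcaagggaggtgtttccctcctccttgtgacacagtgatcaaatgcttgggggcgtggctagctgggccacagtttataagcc
Ifit1: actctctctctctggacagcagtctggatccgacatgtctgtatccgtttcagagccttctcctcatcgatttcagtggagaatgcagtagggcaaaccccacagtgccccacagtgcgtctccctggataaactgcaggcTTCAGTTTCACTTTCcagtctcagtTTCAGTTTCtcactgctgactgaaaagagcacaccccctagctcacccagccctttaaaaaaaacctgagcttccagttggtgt
Isg15: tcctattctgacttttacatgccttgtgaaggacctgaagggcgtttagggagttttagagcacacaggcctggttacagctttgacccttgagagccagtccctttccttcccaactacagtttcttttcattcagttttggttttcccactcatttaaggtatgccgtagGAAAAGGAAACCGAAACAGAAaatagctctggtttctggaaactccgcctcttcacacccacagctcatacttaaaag

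**Figure D3:**
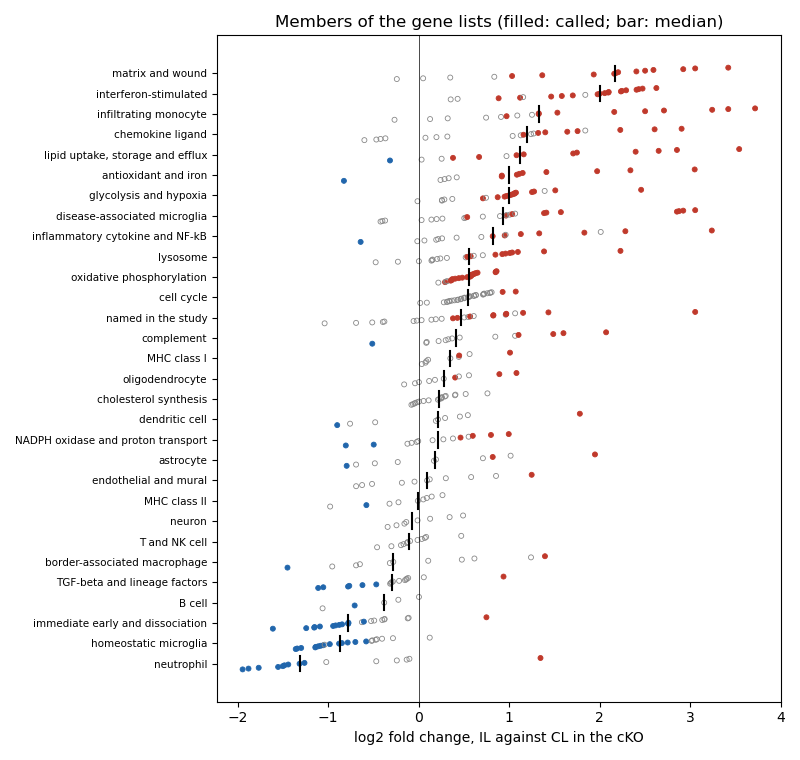
Log2 fold change (IL against CL in cKO) of each tested member of the 30 gene lists, 1 row per list, ordered by median. Filled points were called (red higher, blue lower), open points were not, and the black bar is the median, highest for matrix and wound genes at 2.17 and lowest for neutrophil markers at -1.32.

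Chemokine ligands were called higher for 8 of 20 and lower for 0 (median 1.2), against 12.8% and 9.52% of all genes tested. The number higher was 12 with the mouse as a fixed block and 10 with a random effect of mouse. The neutrophil attractants Cxcl1, Cxcl2 and Cxcl3 led. Cxcl2 read 41.6, 58.2 and 79.6 CPM in CL and 213, 279.6 and 292 CPM in IL, without overlap (log2 fold change 2.23 ± 0.21, adjusted p = 0.00183). Cxcl1 read 9.71, 11.4 and 22.6 CPM in CL and 66.8, 124 and 69.3 CPM in IL, highest in IL 791 (log2 fold change 2.61 ± 0.34, adjusted p = 0.00278). The monocyte attractants were called at smaller fold changes. Ccl2 rose from 155, 146 and 134 CPM to 421, 409 and 273 CPM (log2 fold change 1.40 ± 0.20, adjusted p = 0.00379) and Ccl7 from 42.2, 51.5 and 60.7 CPM to 166, 166 and 127 CPM (log2 fold change 1.64 ± 0.17, adjusted p = 0.00183). Ccl12, a further ligand of CCR2, read 110.0, 158 and 77 CPM in CL and 401, 422 and 261 CPM in IL, with mouse 3592 lowest on both sides (log2 fold change 1.76 ± 0.29, adjusted p = 0.00597, 0.0771 in the fit of all 14 libraries). Ccl3 and Ccl4 were not called (log2 fold changes 0.20 and 0.32, adjusted p = 0.769 and 0.627), CL 3592 being far under the other CL libraries for each.

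Of 17 inflammatory cytokines and NF-kappa-B genes, 7 were called higher and 1 lower (median 0.82), or 9 and 1 with the fixed block. Il1b, interleukin-1 beta, read 389, 455 and 386 CPM in CL and 769, 1084 and 721 CPM in IL, without overlap (log2 fold change 1.13 ± 0.19, adjusted p = 0.00665, 0.0585 in the fit of all 14 libraries). Ptgs2, the inducible cyclooxygenase, read 50, 90.3 and 74.6 CPM in CL and 271, 404 and 309 CPM in IL (log2 fold change 2.28 ± 0.22, adjusted p = 0.00183). Osm and Lif, cytokines of the interleukin-6 family, were called higher (log2 fold changes 1.33 and 1.83, adjusted p = 0.00994 and 0.00237). Tnf read 1253, 1320.2 and 521 CPM in CL and 1988, 2052 and 1309.9 CPM in IL, with IL 3592 overlapping CL (log2 fold change 0.96 ± 0.38, adjusted p = 0.107, and called with the block at adjusted p = 0.0141), and Il1a and Il6 were not called (log2 fold changes 0.06 and -0.02, adjusted p = 0.909 and 0.984). Nfkb1 was the member called lower (log2 fold change -0.64, adjusted p = 0.0123), while Nfkb2 was called higher (log2 fold change 0.95, adjusted p = 0.0208), except without CL 788, IL 784 or IL 791 (adjusted p = 0.0572 to 0.0719).

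The enzymes of glycolysis and genes of the hypoxia response were higher in IL for 14 of 21 and lower for 0 (median 1.0), or 8 without IL 791 and 16 with the fixed block. Vegfa, the angiogenic growth factor, read 13.8, 22.6 and 22.7 CPM in CL and 80.5, 164 and 84.9 CPM in IL, highest in IL 791 (log2 fold change 2.46 ± 0.30, adjusted p = 0.00255). Ldha, lactate dehydrogenase A, read 435, 579 and 352 CPM in CL and 967, 1251 and 833 CPM in IL (log2 fold change 1.25 ± 0.24, adjusted p = 0.00899). Pkm, pyruvate kinase, read 911, 1108 and 779 CPM in CL and 1989, 2378 and 1979.8 CPM in IL (log2 fold change 1.28 ± 0.19, adjusted p = 0.00422). The aldolase Aldoa was called as well (log2 fold change 1.04, adjusted p = 0.0104, 0.0512 in the fit of all 14 libraries). Hif1a, the oxygen-regulated factor, rose (log2 fold change 0.97, adjusted p = 0.0136), except without IL 791 (adjusted p = 0.0523). The first enzymes of the pathway, the hexokinases Hk1, Hk2 and Hk3, were not called (log2 fold changes 0.26, 0.26 and 0.28, adjusted p = 0.431, 0.175 and 0.0818), except Hk3 without CL 3592 (adjusted p = 0.0366). Eno1, Gapdh, Pgk1, Pgam1 and Pkm have processed copies with reads of their own, which makes their single values uncertain, and Gapdh was not called in the fit of all 14 libraries (adjusted p = 0.080).

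Subunits of oxidative phosphorylation were called higher for 21 of 24 and lower for 0, at smaller fold changes (median 0.55). Uqcrq, a subunit of complex III, read 65.2, 73.1 and 70.4 CPM in CL and 116, 113 and 127 CPM in IL, each group narrow (log2 fold change 0.85 ± 0.08, adjusted p = 0.00183). Cox5a, of complex IV, read 45.8, 45.5 and 41.8 CPM in CL and 72.6, 71.6 and 85.3 CPM in IL (log2 fold change 0.85 ± 0.09, adjusted p = 0.00183), and Atp5o, of the ATP synthase, read 58.5, 60.2 and 61.3 CPM in CL and 86.1, 84.2 and 93.8 CPM in IL (log2 fold change 0.63 ± 0.08, adjusted p = 0.00262). Ndufv1 of complex I was not called (log2 fold change 0.22, adjusted p = 0.218). With the mouse as a block 13 of the 24 were called, and without IL 784 also 13. In the fit of all 14 libraries 0 were called (4 with a random effect of mouse), with adjusted p = 0.445, 0.301 and 0.445 for Uqcrq, Cox5a and Atp5o.

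Antioxidant and iron-handling genes were higher for 9 of 14 and lower for 1 (median 1.0), or 10 and 0 with the fixed block. Hmox1, heme oxygenase 1, read 38.2, 76.2 and 106 CPM in CL and 308, 699 and 713 CPM in IL. IL 784 was well under the other IL libraries but above all of CL (log2 fold change 3.05 ± 0.40, adjusted p = 0.0029). Srxn1, sulfiredoxin, read 13.4, 15.1 and 18.2 CPM in CL and 44.1, 74.9 and 65 CPM in IL (log2 fold change 1.97 ± 0.20, adjusted p = 0.00183), and Slc7a11, the cystine transporter, rose by 2.34 on the log2 scale but has a near copy. Txnrd1 and Gsr, the thioredoxin and glutathione reductases, were called at smaller rises (log2 fold changes 0.92 and 1.11, adjusted p = 0.00482 and 0.00661). Slc40a1, the iron exporter ferroportin, read 222, 232 and 325 CPM in CL and 97.6, 170.1 and 150.5 CPM in IL (log2 fold change -0.83 ± 0.22, adjusted p = 0.031). Its fall was not called with the block (adjusted p = 0.0537) or without CL 788, CL 791, CL 3592, IL 784 or IL 3592 (adjusted p = 0.0523 to 0.0836).

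Among 14 genes of the NADPH oxidase and of proton transport, 4 were called higher and 2 lower (median 0.21), against 12.8% and 9.52% of all genes tested. Cyba, the p22phox chain of the oxidase, read 382, 404 and 455 CPM in CL and 594, 563 and 611 CPM in IL (log2 fold change 0.60 ± 0.10, adjusted p = 0.00637). In the fit of all 14 libraries its adjusted p was 0.494, and 0.33 with a random effect of mouse. Cybb, its catalytic chain, read 51.1, 81.5 and 96.8 CPM in CL and 123, 134 and 110.0 CPM in IL (log2 fold change 0.80 ± 0.21, adjusted p = 0.0289). The call was lost with the block (adjusted p = 0.0738) and without CL 791, IL 784 or IL 791 (adjusted p = 0.0528 to 0.106). It was also lost in the fit of all 14 libraries (adjusted p = 0.189, 0.0691 with a random effect of mouse). The cytosolic subunits Ncf1 and Ncf4 were not called (log2 fold changes 0.27 and 0.55, adjusted p = 0.105 and 0.0516), except Ncf4 without IL 3592 (adjusted p = 0.0157) and with a random effect of mouse (adjusted p = 0.0309). Slc4a7, a sodium bicarbonate cotransporter that also removes acid, read 71.3, 65.6 and 67.9 CPM in CL and 39.3, 32.6 and 37.6 CPM in IL, without overlap (log2 fold change -0.81 ± 0.10, adjusted p = 0.00257). Hvcn1, the voltage-gated proton channel, was not called (log2 fold change -0.02, adjusted p = 0.926). The count higher was 2 without CL 788 and 1 without IL 784 or IL 791 or in the fit of all 14 libraries, and the count lower 1 without CL 788, CL 791 or IL 784. With the block the counts were 3 and 1.

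Immediate early and heat-shock genes, which are also induced while tissue is dissociated, were lower in IL for 13 of 22 and higher for 1 (median -0.78). Jun, a subunit of the AP-1 factor, read 3872, 4253 and 6475 CPM in CL and 2133, 1446 and 2621 CPM in IL (log2 fold change -1.15 ± 0.27, adjusted p = 0.018), a call lost without IL 784 or IL 791 (adjusted p = 0.0619 to 0.0731) and in the fit of all 14 libraries (adjusted p = 0.0876). Klf2, a zinc-finger factor that restrains inflammation, read 679.6, 681 and 1012 CPM in CL and 406, 244 and 297 CPM in IL, without overlap (log2 fold change -1.24 ± 0.21, adjusted p = 0.00628). Fos read 8691, 6915 and 9621 CPM in CL and 4640.4, 4157 and 4315 CPM in IL (log2 fold change -0.85 ± 0.26, adjusted p = 0.0476) and was not called with the block (adjusted p = 0.141) nor in any fit without 1 library (adjusted p = 0.0559 to 0.143). Nr4a1, an orphan nuclear receptor, went the other way (log2 fold change 0.75, adjusted p = 0.0198), except without IL 784 or IL 791 (adjusted p = 0.0732 to 0.0844). The heat-shock genes Hspa1a and Hspa1b, called lower (-1.09 and -1.61), are near copies of each other, and their calls were lost without CL 788, IL 784, IL 791 or IL 3592 and in the fit of all 14 libraries (adjusted p = 0.188 and 0.0881). The count of 13 was 12 with the fixed block, 2 without IL 791, 6 without CL 788 or IL 3592, and 7 without IL 784 or in a single fit of all 14 libraries. Whether dissociation differed between the hemispheres was not tested.

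Cell cycle genes were lowest in CL 3592. Of 35 measured, 2 were called higher and 0 lower (median 0.54), against 12.8% and 9.52% of all genes tested. The summed level was 1047 to 2520 CPM in CL, lowest in CL 3592, and 2284 to 2673 CPM in IL. Top2a, topoisomerase II, read 167, 143 and 52.4 CPM in CL and 130.1, 134 and 148 CPM in IL, so that CL 788 and CL 791 lay within or above the IL range (log2 fold change 0.43 ± 0.38, adjusted p = 0.458). Mki67, the proliferation antigen Ki-67, read 115, 94.8 and 41.9 CPM in CL and 98.1, 89.5 and 127 CPM in IL, CL 788 and CL 791 again within the IL range (log2 fold change 0.51 ± 0.34, adjusted p = 0.314). The members called were Rrm2 and Birc5 (log2 fold changes 1.07 and 0.93, adjusted p = 0.0278 and 0.0312). The number called higher was 20 with the mouse as a fixed block, which sets CL 3592 against IL 3592, and 5 with a random effect of mouse. It was 11 without CL 788, 1 without CL 791 and 0 without IL 784, IL 791 or IL 3592. In the fit of all 14 libraries it was 0 (Rrm2 and Birc5, adjusted p = 0.119 and 0.324), and 1 with a random effect of mouse.

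Of 14 complement genes 4 were called higher and 1 lower, 13 lying above 0 (median 0.41), against 12.8% higher and 9.52% lower of all genes tested. The number called higher was 2 without IL 791 and 7 with a random effect of mouse. The number called lower was 0 with the fixed block, in a single fit of all 14 libraries and without CL 788, CL 791, IL 784, IL 791 or IL 3592. The anaphylatoxin receptors C5ar1 and C3ar1 rose. C5ar1 read 175, 264 and 208 CPM in CL and 557, 637 and 503 CPM in IL (log2 fold change 1.49 ± 0.17, adjusted p = 0.00217), and C3ar1 read 331, 426 and 338 CPM in CL and 658, 780.1 and 779 CPM in IL (log2 fold change 1.10 ± 0.14, adjusted p = 0.00254). The chains of C1q, which microglia supply to the brain, were not called (C1qa, C1qb and C1qc, log2 fold changes 0.22, 0.37 and 0.33, adjusted p = 0.469, 0.40 and 0.366). For antigen presentation, 0 of 9 MHC class II genes were called higher and 1 lower, H2-Oa (log2 fold change -0.58, adjusted p = 0.024). H2-Oa was not called without CL 791, CL 3592, IL 784, IL 791 or IL 3592 (adjusted p = 0.0516 to 0.0776) nor in the fit of all 14 libraries (adjusted p = 0.166). Cd74, the class II invariant chain, read 747, 569 and 1043 CPM in CL and 631, 651 and 885 CPM in IL (log2 fold change -0.01 ± 0.22, adjusted p = 0.981). Of 9 MHC class I genes, 2 were called higher and 0 lower, Nlrc5 (log2 fold change 1.01, adjusted p = 0.00872, 0.0746 in the fit of all 14 libraries) and Psmb8 (log2 fold change 0.45, adjusted p = 0.0119). Psmb8 was called neither with the block (adjusted p = 0.0711) nor without IL 784 or IL 791 (adjusted p = 0.0509 to 0.0573) nor in the fit of all 14 libraries (adjusted p = 0.324). Over all genes the shares called were those given for complement, so counts this small in 9 genes say nothing particular of either class. The class I count was 1 without IL 784 or IL 791, 4 without IL 3592 and 0 in the fit of all 14 libraries.

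Neutrophil markers were lower in IL. Of 15 measured, 9 were called lower and 1 higher (median -1.32), and their summed level was 1395 to 2572 CPM in CL, highest in CL 3592, and 954 to 1219 CPM in IL. The genes that fell encode granule and antimicrobial proteins. Ngp, neutrophilic granule protein, read 206, 292 and 509 CPM in CL and 64.5, 93.2 and 83.4 CPM in IL, without overlap (log2 fold change -1.88 ± 0.29, adjusted p = 0.00463). Camp, cathelicidin, read 49.9, 70.8 and 134 CPM in CL and 14.5, 19.7 and 21.6 CPM in IL (log2 fold change -1.95 ± 0.30, adjusted p = 0.00493), and Elane, neutrophil elastase, 5.67, 10.5 and 9.72 CPM in CL and 1.43, 2.51 and 2.3 CPM in IL (log2 fold change -1.55 ± 0.25, adjusted p = 0.00511). S100a8 was called lower (log2 fold change -1.44, adjusted p = 0.024), except without CL 791, IL 784, IL 791 or IL 3592 (adjusted p = 0.0532 to 0.0846) and in the fit of all 14 libraries (adjusted p = 0.415). The receptors of mature neutrophils did not follow. Cxcr2 read 4.43, 8.52 and 13.6 CPM in CL and 4.71, 14.2 and 4.94 CPM in IL (log2 fold change -0.10 ± 0.46, adjusted p = 0.897), and Csf3r was not called (log2 fold change -0.13, adjusted p = 0.608). Csf3r has a near copy, which makes its value uncertain. Il1r2, a decoy receptor for interleukin-1, was the member called higher (log2 fold change 1.35, adjusted p = 0.0301), though not without CL 788, CL 791 or IL 784 (adjusted p = 0.0526 to 0.0834) nor in the fit of all 14 libraries (adjusted p = 0.186). The 9 falls were 10 with the fixed block, 5 without IL 784 and 0 in the fit of all 14 libraries (Elane, adjusted p = 0.452), with or without a random effect of mouse.

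For the other cell types, counts are small and are to be read against the 22.4% of all genes called. Of 11 markers of border-associated macrophages, 1 was called higher, Ms4a7 (log2 fold change 1.40, adjusted p = 0.00301), and 1 lower, Cd209f (log2 fold change -1.45, adjusted p = 0.0412). Cd209f had no call when any of CL 788, CL 791, CL 3592, IL 784 or IL 791 was left out (adjusted p = 0.0566 to 0.0963) nor in the fit of all 14 libraries (adjusted p = 0.083). It has a near copy, Cd209g, so that reads could be split between the pair. The number called higher was 3 with the block or without CL 3592 and 2 without IL 784, and the number called lower 2 with the block or without IL 3592. Mrc1, the mannose receptor, read 70.7, 93.3 and 149.9 CPM in CL and 40.6, 46.9 and 101 CPM in IL, highest in mouse 3592 on each side (log2 fold change -0.69 ± 0.33, adjusted p = 0.168). It was called with the block (adjusted p = 0.0175) and without IL 3592 (adjusted p = 0.0446). Astrocyte markers summed to 187 to 227 CPM in CL and 141 to 200 CPM in IL. Their log2 fold changes were above 0 for 6 and below 0 for 4 (median 0.18). Gfap, the astrocytic filament and the largest rise of that list, read 5.51, 6.3 and 11.6 CPM in CL and 19.5, 39.5 and 34.2 CPM in IL (log2 fold change 1.95 ± 0.31, adjusted p = 0.00518). Oligodendrocyte markers summed to 181 to 225 CPM in CL and 213 to 257 CPM in IL, with 3 of 11 called higher and 0 lower. The number higher was 1 with the block, in the fit of all 14 libraries or without CL 791 or IL 3592, and 0 without IL 784. Mbp, myelin basic protein, read 33.2, 43.9 and 46.4 CPM in CL and 54.5, 45.7 and 53.6 CPM in IL, IL 791 overlapping CL (log2 fold change 0.40 ± 0.12, adjusted p = 0.0497). The call was lost with the block (adjusted p = 0.293) and without CL 788, CL 791, IL 784, IL 791 or IL 3592 (adjusted p = 0.0696 to 0.165), and in the fit of all 14 libraries (adjusted p = 0.116). Of 10 astrocyte markers 2 were called higher and 1 lower, with 1 higher without IL 791 or in a single fit of all 14 libraries, and 0 lower without IL 784 or 2 without CL 788 or with a random effect of mouse. Of 9 dendritic cell markers 1 was called higher and 1 lower, with 2 higher without CL 3592, and 0 lower without CL 788, CL 3592, IL 784 or IL 791 or in the fit of all 14 libraries. Of 11 endothelial and mural markers 1 was called higher, or 3 without CL 3592, and 0 lower. Of 5 B cell markers tested 0 were called higher and 1 lower, Ighm, the heavy chain of immunoglobulin M, at 730.4, 632 and 632 CPM in CL and 471, 389.8 and 304 CPM in IL (log2 fold change -0.71, adjusted p = 0.0332). The B cell count was 0 without CL 788, IL 791 or IL 3592 or in the fit of all 14 libraries, and Ighm was also lost without CL 791 (adjusted p = 0.067 to 0.0948, and 0.0952 in the fit of all 14). By limma 0 of the 8 neuron and 0 of the 12 T and NK cell markers tested were called, with 2 and 0 at an unadjusted p under 0.05.

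The study itself named 26 genes tested here, some of them picked from these libraries and others known from earlier work, so the list is no independent evidence of its direction. Of them, 10 were called higher in IL and 0 lower (median 0.47), against 12.8% and 9.52% of all genes tested. The number higher was 9 with the fixed block, 6 without IL 784 and 5 without IL 791. S1pr1, a receptor for sphingosine-1-phosphate, read 43.3, 54.1 and 49.3 CPM in CL and 86.9, 115 and 110.1 CPM in IL, without overlap (log2 fold change 1.15 ± 0.13, adjusted p = 0.00215). Ifi207, an interferon-inducible gene of the pyrin family, read 10.1, 13.4 and 23 CPM in CL and 38.4, 36.5 and 42.3 CPM in IL (log2 fold change 1.43 ± 0.23, adjusted p = 0.00562). Psen2, a subunit of gamma-secretase, rose from 10.2, 12.1 and 15.2 CPM to 19.2, 22.1 and 22.7 CPM (log2 fold change 0.82 ± 0.15, adjusted p = 0.00876). Slc2a5, the fructose transporter of microglia, spread widely between mice, at 226, 49.2 and 204 CPM in CL and 92, 23.9 and 96.7 CPM in IL (log2 fold change -1.04 ± 0.66, adjusted p = 0.291), and was called lower with the mouse as a block (adjusted p = 0.00478).

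In the pair of mice with both hemispheres the difference can be read within an animal. The genes were called on these libraries, so a shared direction in both mice is fixed by the choice of genes and is no separate check. Over all 16757 genes tested, 72.1% had the same sign in mice 791 and 3592. Among the 3746 called, the median size of the difference was 0.60 on the log2 scale in mouse 791 and 0.73 in mouse 3592, and 2265 genes moved further in mouse 3592. For the genes called lower the medians were -0.53 and -0.76, and for those called higher 0.64 and 0.70. These medians rest on the scaling, which shifted the difference by 0.19 in mouse 791 and 0.017 in mouse 3592. On the deposited CPM without further scaling, a setting chosen after seeing the data, they were -0.70 and -0.78 for the genes called lower and 0.46 and 0.69 for those called higher. P2ry12 fell by 0.94 in mouse 791 and by 1.71 in mouse 3592, or by 1.13 and 1.72 without scaling. Spp1 rose by 2.85 and 1.98, or by 2.66 and 1.96 without scaling. The genes at which the mice parted most were those of hemoglobin, Hba-a1, Hbb-bs and Hba-a2, carried by red blood cells. Hba-a1 read 46.3, 41.8 and 34.2 CPM in CL and 123, 139 and 15.7 CPM in IL, which is a difference of 1.90 in mouse 791 and -1.06 in mouse 3592. With all libraries none of these 3 was called (log2 fold changes 0.76, 0.76 and 0.65, adjusted p = 0.499, 0.365 and 0.421), and Hba-a1 and Hba-a2 are near copies. Without IL 3592 the log2 fold change was 1.81 for Hba-a1 and 1.53 for Hbb-bs, both called (adjusted p = 0.00792 and 0.0119), and without IL 791 it was 0.18 and 0.19.

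**Figure D4:**
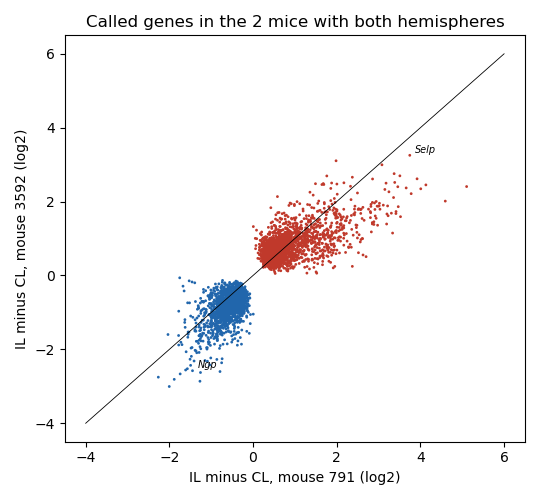
Difference IL minus CL on the scaled log2(CPM + 1) values in mouse 3592 (vertical axis) against mouse 791 (horizontal axis) for the 3746 called genes, red called higher and blue called lower. The shared direction on both axes follows from the choice of genes on these libraries, and the genes called lower lie mostly below the diagonal of equal change, with medians of -0.53 in mouse 791 and -0.76 in mouse 3592 after scaling and -0.70 and -0.78 without it.

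The hemisphere difference of Ctrl mice came from other animals, 4 with both hemispheres, and shared no library with that of cKO. Among 16376 genes tested in Ctrl without a block, 1078 (6.58%) were called, 594 higher (3.63%) and 484 lower (2.96%). This fit leaves out that each Ctrl mouse gave both hemispheres. With the mouse as a fixed block 3358 (20.5%) were called, 1607 higher and 1751 lower, and with a random effect of mouse 3853 (23.5%). The median SE per gene in Ctrl was 0.211 without the block and 0.145 with it, against 0.158 in cKO. The Ctrl libraries reached lower depths, down to 12.2 M reads, so the counts of calls cannot be compared as sizes of response. Over 15862 genes tested in both, the log2 fold changes were related across genes (Pearson r = 0.809, Spearman rho = 0.733), which are not independent replicates. Of 3705 genes called in cKO and tested in Ctrl, 3469 (93.6%) had the same sign in Ctrl, and 878 were called in both, all in the same direction. These were 23.7% of the cKO calls and 82.1% of the 1069 Ctrl calls tested in cKO. With the fixed block in Ctrl, 2055 were called in both, again all in the same direction, which is 55.5% of the cKO calls and 61.6% of the 3336 Ctrl calls tested in cKO.

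The difference itself was tested as the interaction of genotype and hemisphere over all 14 libraries. By limma, 0 of 18475 genes were called and 481 (2.6%) had an unadjusted p under 0.05, the lowest adjusted p being 0.0736. With the mouse as a random effect, which uses that 6 mice gave both hemispheres, 1200 (6.5%) had an unadjusted p under 0.05. In that fit Ifi202b, Gm6356 and Gm3411 were called (3 genes), and without the block 1 was called without CL 791 (Ifi202b) and 1 without IL 791 (Gm6356). Ifi202b, Gm6356 and Gm3411 also had the 3 lowest p values without the block, and they were at or near 0 in all Ctrl libraries of both hemispheres. Ifi202b, an interferon-inducible gene, read 6.53, 13.6 and 8.83 CPM in cKO CL and 40.5, 41 and 36.4 CPM in cKO IL, and its Ctrl libraries lay between 0 and 0.164 CPM. Its interaction, like those of Gm6356 and Gm3411, which fell in cKO, compares hemispheres in a genotype in which the gene was at or near 0. For the other genes a difference in response between the genotypes was not shown, and the values that follow are given side by side.

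The rise of Spp1 was 3.06 ± 0.52 in cKO and 5.60 ± 0.69 in Ctrl, both without a block. Ctrl CL read 1246, 152, 113 and 466 CPM and Ctrl IL 20073, 14672, 15698 and 9791 CPM, and the interaction was -2.53 ± 1.0 (unadjusted p = 0.0239, adjusted p = 1.0). In the matrix list Thbs1 and Mmp14 were the other members with an unadjusted p under 0.05, at -2.23 ± 0.65 and -1.09 ± 0.39, both smaller rises in cKO and neither called (adjusted p = 1.0 and 1.0). In the chemokine list the members were Ccl7, Ccl12 and Ccl2, with larger rises in cKO. Ccl7 rose by 1.64 ± 0.17 in cKO and was at 0.38 ± 0.22 in Ctrl (interaction 1.27 ± 0.32, adjusted p = 1.0). Ccl2 and Ccl12 had interactions of 1.18 ± 0.45 and 1.73 ± 0.77 (adjusted p = 1.0 and 1.0). In both lists 3 members had an unadjusted p under 0.05, of 16 and of 20, or 3 and 5 with a random effect of mouse, against 2.6% and 6.5% of all genes tested. The oligodendrocyte list had the most, 5 of 12 (7 with the random effect), with all 12 interactions above 0 (median 0.60) and medians of 0.28 in cKO and -0.49 in Ctrl. Members of a list were measured in the same mice, so counts of signs, here and below, are not counts of replicates. Infiltrating monocyte markers had 3 of 17 (4 with the random effect) and the genes named by the study 4 of 26 (6), to be read beside the same 2.6% and 6.5%.

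Interferon-stimulated genes had a median of 2.0 in cKO and 1.14 in Ctrl, where 4 were called higher (15 with the mouse as a fixed block). Their interactions were above 0 for 21 of 21 (median 0.69), against 57.3% of all genes tested (median 0.04), although members read in the same mice are not independent replicates. None reached an unadjusted interaction p under 0.05 without the block (0 of 21), and 4 did with a random effect of mouse. Subunits of oxidative phosphorylation had medians of 0.55 and 0.15, with 0 of 24 called in Ctrl by limma without a block (1 at an unadjusted p under 0.05) and 2 called higher with the fixed block. Their interactions were above 0 for 22 of 24 (median 0.42), 0 of them under an unadjusted 0.05 with or without the random effect. Homeostatic genes had medians of -0.86 and -0.94, with 14 and 12 called lower (18 in Ctrl with the fixed block) and 15 of 22 interactions above 0 (median 0.08), 0 of them under 0.05 with or without the random effect. Neutrophil markers had medians of -1.32 and -2.39, and 0 of 15 were called in Ctrl by limma without a block (8 at an unadjusted p under 0.05). With the fixed block 12 were called lower and 1 higher in Ctrl, whose CL libraries spread widely (Ngp, 2522, 765, 1093 and 127 CPM). All 15 neutrophil interactions were above 0 (median 0.93), 0 of them under 0.05 with or without the random effect.

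**Figure D5:**
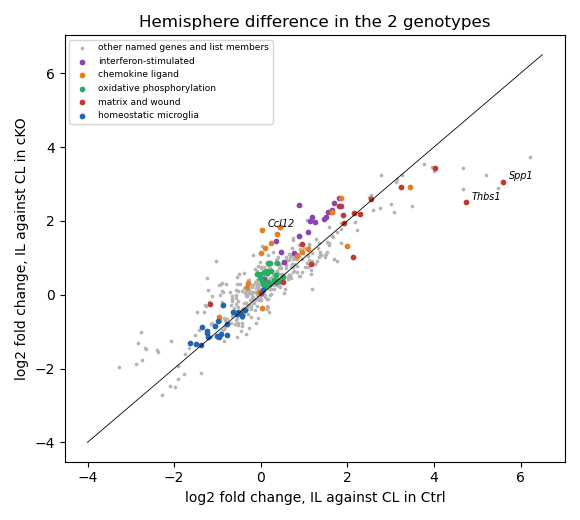
Log2 fold change of IL against CL in cKO (vertical axis) against that in Ctrl (horizontal axis) for the listed and named genes tested in both, with 5 lists in colour and a line of equal change. Spp1 and Thbs1 lie under the line and the interferon and chemokine genes mostly over it, while the interaction fitted without a block called 0 genes.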

How the data were processed

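CD11b+ cells of 1 hemisphere gave 1 library each. Per the labels and the study's methods, the authors aligned reads to the mouse genome with STAR in Partek Flow (version 8.0 is named in the submitters' notes). The counting method, its strand setting and the annotation used are not given in the sources used here. The deposited table holds 33939 genes, of which 33802 matched a symbol and a position in GENCODE M21 (GRCm38). It is described as raw counts, but each library sums to 1000000, so its values were taken as CPM, as deposited. Low values were whole multiples of a common step for 79.8 to 81.2% of values (tolerance 0.03) in the cKO libraries, too few to recover reads. Tests on the log scale were therefore used, as planned for CPM. The spacing of these steps gave the depth, 25.8 to 38.3 M reads (M, 1000000) in cKO. The authors' own comparison files hold their fold changes and p-values and were not used.

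Genes were kept where at least 3 libraries reached 0.312 CPM, the worth of 10 reads at the median depth, and the estimated reads summed to at least 15. Values were scaled by trimmed means (30% of ratios and 5% of levels trimmed, factors 0.915 to 1.05) and tested as log2(CPM + 1) with limma 3.58.1 in R 4.3.3 (empirical Bayes with a trend, Benjamini-Hochberg adjustment over all genes tested), so that changes of low genes are understated. Values under 1e-06 CPM are given as 0. On data simulated for the cKO comparison (16753 genes), 59 of 100 genes changed 2-fold and 100 of 100 changed 4-fold were recovered, with 10 false calls. The simulation gave every gene the same dispersion, changed only genes of higher level, left most genes unchanged and held no effect of mouse. Its rates are therefore not those of the real comparison. Libraries came from 8 mice, of which 6 gave both hemispheres. The p-values measure the spread between libraries, and fits without a block treat both hemispheres of a mouse as independent.

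Mice 791 and 3592 gave both hemispheres, so the mouse pairs these libraries. Deviations from the hemisphere means correlated at 0.185 and 0.390 within these mice and at -0.251 to 0.185 in the other 7 combinations. The fit with the mouse as a fixed block is given beside the described genes and list counts that it changed. The interaction and the Ctrl comparison were fitted without a block, and the values with the mouse as a block, which in Ctrl pairs all 4 mice, stand beside them.

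Some items, the check of the targeted gene among them, are not reported here, although list counts include all members. The members and the gene lists were chosen with earlier results of these data known. Named genes were the 10 largest called rises and falls without overlap between hemispheres and with a mean log2(CPM + 1) above 3 in at least 1 of them, the 6 largest gains and losses in CPM, members of the described lists, the 3 lowest interaction p-values, and the 3 genes with the widest spread between the paired differences of mice 791 and 3592 (mean above 5). Near copies are genes with at least 95% identity over 300 or more bases of transcript (blastn 2.17.0), whose reads the counting could split. Alternatives were other scalings, pseudocounts, filters, fold thresholds, no variance trend, blocks by mouse, a fit of all 14 libraries and leaving out each library in turn. Tables and plots used Python 3.11.15, numpy 2.4.6, pandas 2.3.3 and matplotlib 3.10.9.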

Additional observations from a re-analysis of the deposited data

Results flagged for a closer look

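Both results that stood apart from their group were values near 0 in Ctrl IL, whose other libraries had still less. Ifi202b read 0.164 CPM in 1 Ctrl IL library and 0 CPM in the other 3. Gm3411 read 0.178 CPM in 1 Ctrl IL library and 0 CPM in the other 3. In each, the gap between the highest library and the next took up the whole range of the 4 libraries, above Dixon's critical value. With 3 of 4 values at 0, any single value above 0 is marked, so these marks follow from the floor, and the usual rate of about 1 in 20 groups by chance does not hold for them. The groups of 3 cKO libraries were too small to be examined this way.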

How the results depend on the processing

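Of 3746 genes called between hemispheres in cKO, the count ranged from 1881 to 3537 when 1 library was left out, lowest without IL 784. It was 2315 with the mouse as a fixed replicate block, 1391 in a single fit of all 14 libraries, 822 at a fold change of at least 2 and 504 in the 4 libraries of the mice with both hemispheres, an alternative chosen after seeing the data. The other settings gave 2786 (no filter on low values) to 4728 (mouse as a random effect). No gene called among the 3746 and again under an alternative changed direction. The split of higher and lower calls was 1647 and 2146 without scaling, 1912 and 1920 with upper-quartile scaling and 2079 and 1772 with median-ratio scaling, so small changes depend on scaling. The cause of these changes was not tested. For the interaction, 0 calls became 3 with the mouse as a random effect (replicate block), and leaving out 1 library gave 0 to 1. In Ctrl, 1078 calls became 3358 with the mouse as a fixed replicate block and 3853 with the mouse as a random effect, and leaving out 1 Ctrl library gave 487 to 1413, settings chosen after seeing the data. The lowest was without Ctrl IL 3541, and the count was also over 1.5 times smaller without Ctrl CL 3545 or 3546 and without Ctrl IL 3545 or 3551. Of 3499 values of the 175 named genes over 20 settings, 3202 kept direction and side of the threshold, 234 lost the call, 29 gained it and 34 changed sign. No gene was called where its sign changed. With 1 library left out, the log2 fold change ranged from -0.61 to 0.23 for Cxcr2, -0.26 to 0.045 for Csf3r, -0.50 to 0.069 for Mmp9, -0.35 to 0.37 for Ly6c1, -0.13 to 0.80 for Ifih1, -0.18 to 0.44 for Il1a, -0.55 to 0.37 for Il6, -0.27 to 0.51 for Ccl3, -0.14 to 0.65 for Ccl4, -0.094 to 0.77 for Top2a, -0.22 to 0.21 for Cd74 and -0.13 to 0.10 for Hvcn1. Without scaling Il1a was at -0.022. Il6 was at 0.24 with the fixed block and in the mice with both hemispheres, 0.032 with the random effect, 0.0093 with all 14 libraries and 0.093 with both. Cd74 was at 0.084 with the fixed block and in the mice with both hemispheres, 0.0080 with the random effect, 0.018 with all 14 libraries and 0.046 with both, and Hvcn1 at 0.0062 with all 14 libraries. Calls that a fixed block by mouse changed stand beside the genes concerned, and it changed no other call of the named genes. Of the interactions, 1200 had an unadjusted p under 0.05 with the random effect and 481 without. Depth was estimated, not given, and transcripts under 0.312 CPM were not tested.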
